A study of Mus musculus with 6 samples.

Results

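The complement genes examined here encode proteins of the complement system and its receptors, and they were measured in mouse hearts under pressure load. Of 9 genes listed, 7 had array probe sets under a single gene symbol: C1qa, C1qb, C1qc, Cfb, Cfp, C3ar1 and C5ar1. They were represented by 12 of 38195 probe sets, each of which is reported. C3 and C4b, the other listed genes, were not analysed here, because the probe annotation used here assigns no probe set to their symbols. The samples were heart RNA from 3 Tmbim1 knockout mice and 3 wild type mice labelled Flox, which denotes a gene flanked by loxP sites. All 6 mice were on a C57BL/6 background, were 8 weeks old and had lived for 2 weeks with a surgically constricted aorta, an operation known as aortic banding that the labels spell as binding. Each heart was hybridised to its own Affymetrix array. The labels name no Cre driver, so which cells of the heart lacked Tmbim1 was not known. No unoperated hearts were analysed here, so the values compare genotypes within banded hearts.

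Complement is a cascade of plasma and tissue proteins that marks targets for phagocytosis and lysis. In the classical pathway C1q, built from the chains encoded by C1qa, C1qb and C1qc, binds antibodies or altered surfaces and starts cleavage of C4, C2 and C3. The alternative pathway needs factor B (Cfb) and properdin (Cfp), and the cleavage fragments C3a and C5a signal through the receptors encoded by C3ar1 and C5ar1. Most plasma components are made by the liver, whereas C1q chains are made mainly by tissue macrophages, which in the heart lie between the cardiomyocytes.

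Values are deposited log2 signals, so a difference of 1 is a doubling. Array medians lay between 4.24 and 4.28 and lower quartiles between 2.72 and 2.78. Tmbim1 was lower in every knockout heart, at 7.53 ± 0.04 against 8.43 ± 0.13 (SD, n = 3), with a difference of -0.91 (limma adjusted p = 0.00579). That call was lost without knockout replicate 2 (adjusted p = 0.0512). The difference between the 3′ and 5′ control probe sets, a sign of RNA integrity, was 0.33 to 0.55 for actin in wild type hearts and 0.30 to 0.33 in knockout hearts. For the control gene Gapdh it was 0.17, -0.06 and -0.07 in wild type replicates 1 to 3 and -0.08 to -0.05 in knockout hearts. Wild type replicate 1 had the highest such value, and wild type replicate 3 was the lowest array in 8 of the 12 complement probe sets.

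Mean signals of the C1q chain genes and of C5ar1, the C5a receptor gene, stood 0.34 to 0.53 above wild type in knockout hearts on the log2 scale, but no complement gene passed the threshold of the test. By limma with adjustment over all 38195 probe sets, 0 of the 12 complement probe sets had an adjusted p under 0.05, where 0.422% of all probe sets did. At an unadjusted p under 0.05 there were 4 of 12, all higher in knockout hearts, where 4.74% of all probe sets were higher at that level and 10.6% differed in either direction. These 4 belonged to C1qa, C1qb and C5ar1. In the same 4 probe sets all 3 knockout arrays lay above all 3 wild type arrays, an arrangement seen in 6.74% of all probe sets. The reverse arrangement, with all knockout arrays below, was found in 0 of the 12 and in 8.42% of all probe sets. The median difference of the 12 probe sets was 0.35, against a median of -0.0022 over all probe sets. The 12 are not independent, since C1qb and C3ar1 have 3 probe sets each and C5ar1 has 2. Their genes were also chosen with earlier results of these data known.

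**Figure D1:**
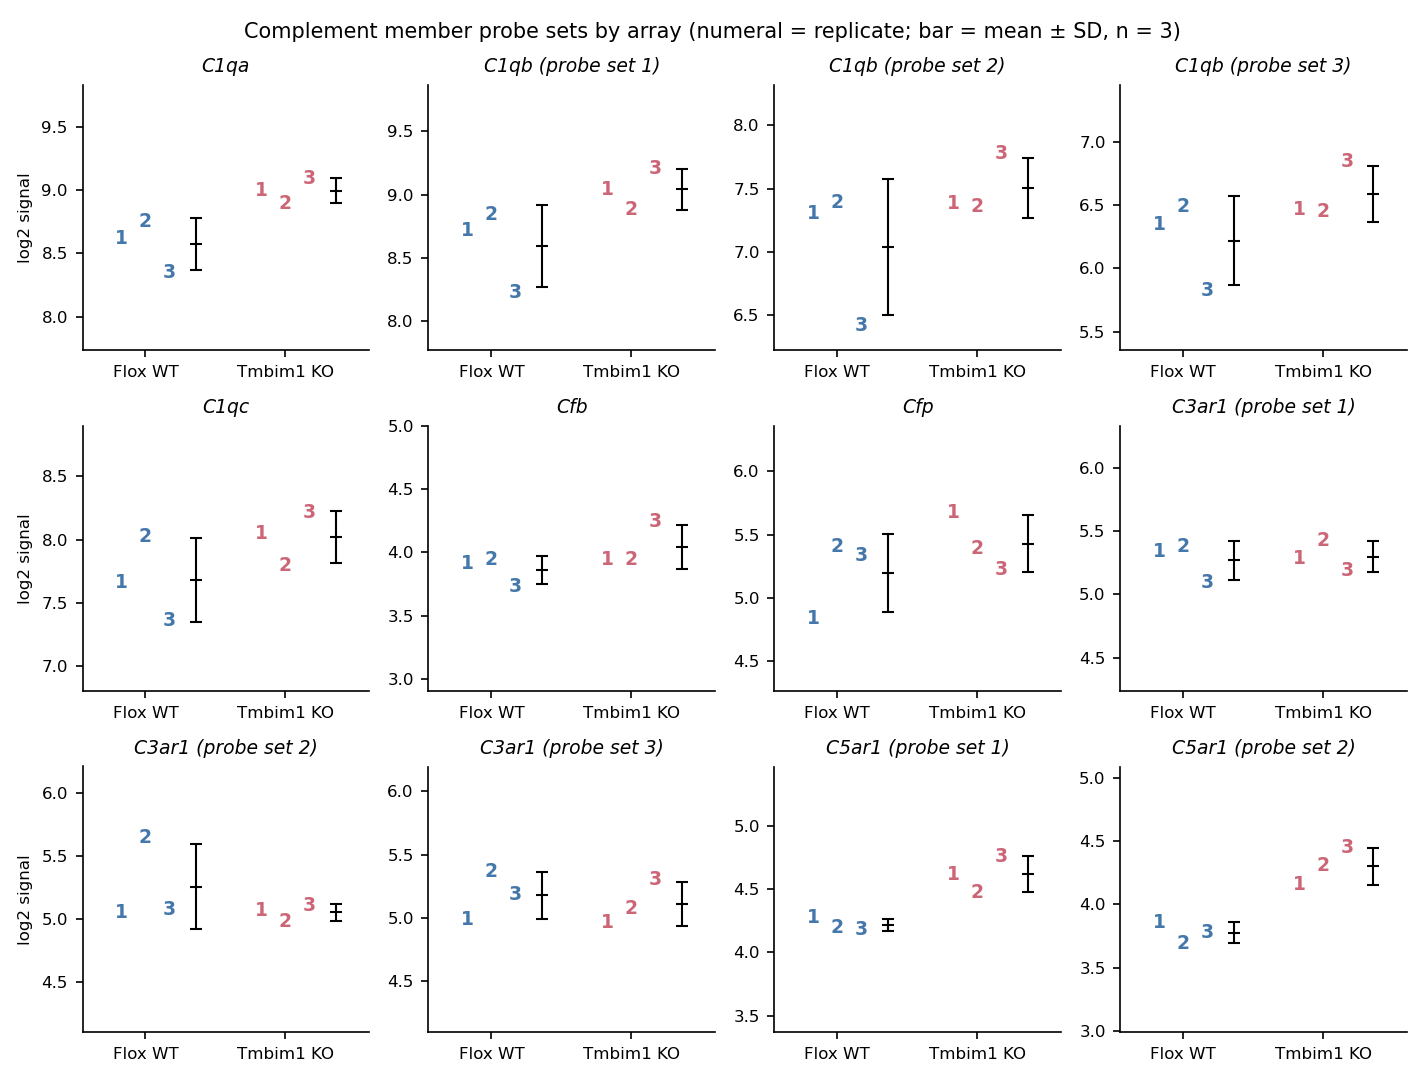
Log2 signal (vertical axis) of each complement probe set in the 3 Flox wild type (blue) and 3 Tmbim1 knockout (red) hearts. Numerals mark the replicate and black bars the mean ± SD (n = 3). Every panel spans the same log2 range, and in C1qa, the first C1qb panel and both C5ar1 panels the knockout values lie above all wild type values.

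C1qa encodes the A chain of C1q. Its probe set 1417381_at read 8.62, 8.75 and 8.35 in wild type replicates 1 to 3 and 8.999, 8.89 and 9.09 in knockout replicates 1 to 3. All knockout arrays were above all wild type arrays, with the lowest value in wild type replicate 3. The means were 8.57 ± 0.21 and 8.99 ± 0.10 (SD, n = 3), and the difference was 0.42 (SE 0.12, 95% interval 0.15 to 0.69, limma adjusted p = 0.218), or 1.34-fold. Without wild type replicate 3 it was 0.31, and over the other single arrays left out it reached 0.51.

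C1qb encodes the B chain and has 3 probe sets. The brightest, 1417063_at, read 8.71, 8.84 and 8.23 in wild type hearts and 9.04, 8.88 and 9.21 in knockout hearts. Its groups did not overlap, although knockout replicate 2 lay close to wild type replicate 2. The difference was 0.45 (SE 0.16, 95% interval 0.09 to 0.80, limma adjusted p = 0.332), and without wild type replicate 3 it was 0.26.

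The other probe sets of C1qb end in x_at, the array maker's mark for probes that can match more than their own transcript. 1437726_x_at read 7.30, 7.39 and 6.42 in wild type and 7.38, 7.36 and 7.78 in knockout hearts, a difference of 0.47 (SE 0.23, 95% interval -0.05 to 0.98, limma adjusted p = 0.533). 1434366_x_at read 6.35, 6.49 and 5.82 against 6.46, 6.45 and 6.84, a difference of 0.37 (SE 0.18, limma adjusted p = 0.510). In both, the groups overlapped, with wild type replicate 3 alone at the bottom and knockout replicate 3 alone at the top. Without wild type replicate 3 their differences were 0.16 and 0.17, which is less than that of the brightest probe set.

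C1qc encodes the C chain. Its probe set 1449401_at read 7.66, 8.02 and 7.36 in wild type hearts and 8.05, 7.80 and 8.21 in knockout hearts. Wild type replicate 2 stood above knockout replicate 2, so the groups overlapped. The difference was 0.34 (SE 0.17, 95% interval -0.04 to 0.71, limma adjusted p = 0.532), and it was 0.18 without wild type replicate 3.

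All 5 C1q probe sets therefore had positive differences, between 0.34 and 0.47, with intervals that reached from -0.05 to 0.98 at the widest. In all 5, wild type replicate 3 was the lowest and wild type replicate 2 the highest wild type array. By arithmetic, each difference therefore shrank without replicate 3 and grew without replicate 2, to between 0.50 and 0.64. With knockout replicate 1 and wild type replicate 3 both left out, they ranged from 0.16 to 0.31. Knockout replicate 1 was set aside there because Myl7 and Myl4, the genes of atrial myosin light chains, read 12.86 and 12.98, far above the other arrays. The sign held for all 5 C1q probe sets under every alternative run, and 0 passed the limma threshold in any.

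**Figure D2:**
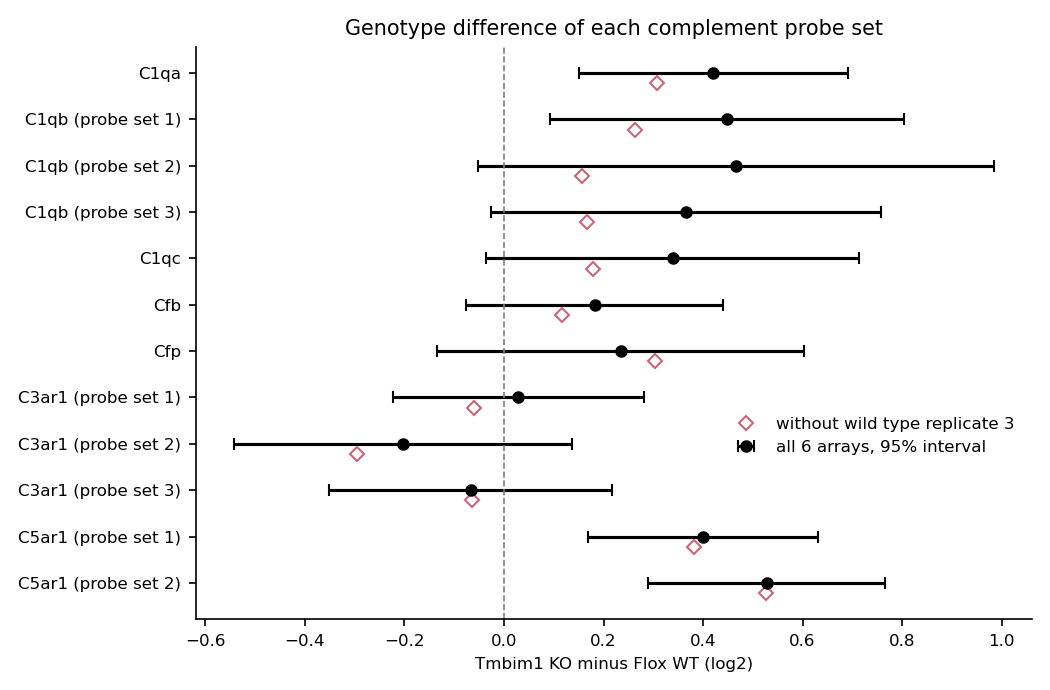
Difference in log2 signal, Tmbim1 knockout minus Flox wild type (horizontal axis), for each complement probe set. Black points are all 6 arrays with the 95% interval of the limma fit, and open red diamonds leave out wild type replicate 3; the C1q differences lie between 0.34 and 0.47 with all arrays and between 0.16 and 0.31 without that array, while those of C5ar1 stay at 0.38 and 0.53.

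The C1q genes lie side by side on chromosome 4 in the order C1qb, C1qc and C1qa, with no other gene of the RefSeq table (GRCm38.p6) between them. Because the chains are coded next to each other and had differences of one sign, the 250 bases before the RefSeq start of C1qb (chr4:136886201-136886450, minus strand) and C1qc (chr4:136892915-136893164, minus strand) are shown, 5′ to 3′ along the gene; the table held no entry for C1qa. Capitals mark matches on either strand to motifs of factors known from myeloid and inflammatory genes.
C1qb: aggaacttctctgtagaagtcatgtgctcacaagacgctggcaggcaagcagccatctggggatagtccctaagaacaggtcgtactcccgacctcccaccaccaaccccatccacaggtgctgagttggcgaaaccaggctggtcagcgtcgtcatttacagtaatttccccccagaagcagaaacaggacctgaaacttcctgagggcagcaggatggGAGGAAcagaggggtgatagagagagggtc
C1qc: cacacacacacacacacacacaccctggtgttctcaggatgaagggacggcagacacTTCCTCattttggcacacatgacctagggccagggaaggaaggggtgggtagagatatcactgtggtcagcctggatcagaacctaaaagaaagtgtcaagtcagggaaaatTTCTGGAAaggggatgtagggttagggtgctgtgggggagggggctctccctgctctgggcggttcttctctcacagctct
The motifs searched were GAGGAA for PU.1, the factor that specifies macrophages, TTNNGNAA for the C/EBP factors, TTCNNNGAA for STAT factors, TGANTCA for the factor AP-1 and TATAAA for the TATA box. C1qb held GAGGAA from 30 to 25 bases before its start. C1qc held the reverse complement of GAGGAA from 193 to 188 bases before its start and a C/EBP match from 81 to 74. Of 32851 mouse promoter windows of this length, 23.3% held GAGGAA and 36.8% held the C/EBP motif, so these matches are common, and they are descriptions of letters and not of binding.

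Macrophage markers were measured in the same RNA, and cell number and RNA per cell cannot be told apart in whole hearts. Of 18 listed macrophage and monocyte markers 17 were measured. By limma 0 passed, 12 had positive and 5 negative differences, and the median difference was 0.15, or 0.06 without wild type replicate 3. At an unadjusted p under 0.05 there were 5 of 17, all higher in knockout hearts, where 4.74% of all probe sets were higher at that level. The defining markers Adgre1 (F4/80), Csf1r and Cd68 had differences of 0.25, 0.09 and 0.39, and Fcgr1, a high-affinity antibody receptor, 0.40. Lyve1, Cd14 and Lyz2 had differences of 0.79, 0.38 and 0.31. In these and in Fcgr1, 4 of the 17 markers, all knockout arrays lay above all wild type arrays. In 0 of the 17 all lay below. These arrangements were seen in 6.74% and 8.42% of all probe sets. Cx3cr1 and Timd4, receptor genes of resident macrophages, had differences of -0.24 and -0.22, and the monocyte receptor gene Ccr2, Cd163 and Mertk -0.11, -0.02 and -0.02. The mean of the 17 markers, each centred on its own 6-array mean, ran from -0.25 to 0.11 in wild type hearts and from 0.01 to 0.16 in knockout hearts, so the groups overlapped. The group means differed by 0.17, or by 0.09 without wild type replicate 3. The lowest array was wild type replicate 3 and the highest knockout replicate 3, as for C1qa, C1qb and C1qc.

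Centred in the same way, the mean of the 3 C1q genes was -0.15, 0.06 and -0.51 in wild type hearts and 0.21, 0.04 and 0.35 in knockout hearts. Subtracting the marker mean from it left -0.04, -0.05 and -0.25 in wild type hearts and 0.12, 0.03 and 0.19 in knockout hearts. The groups then did not overlap, and their means differed by 0.23, or by 0.16 without wild type replicate 3. Among single probe sets, 6.74% had all 3 knockout arrays above all 3 wild type arrays. No such share was computed for differences between means of several genes, so that figure gives no rate for them. The marker differences ran from -0.24 to 0.79, so subtracting their mean cannot remove macrophage content from the C1q values. The part of macrophage content in the C1q difference was not tested.

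Fibroblast markers moved with wild type replicate 3 as well. The centred mean of 10 such markers was -0.54 there, against 0.03 in each of the other wild type hearts and 0.10 to 0.23 in knockout hearts. Cardiomyocyte markers were lower in knockout hearts in all 9 cases, with a median difference of -0.15. Over all probe sets, 19344 of 38195 were lower. The centred means of the 9 were 0.03 to 0.12 in wild type and -0.12 to -0.06 in knockout hearts. All knockout arrays lay below all wild type arrays in 7 of the 9, in 1 of the 10 fibroblast markers and in 8.42% of all probe sets. All lay above in 0, 3 and 6.74%. The defining fibroblast markers Pdgfra, Dcn and Tcf21 had differences of -0.03, 0.26 and 0.24, and the cardiomyocyte markers Tnnt2, Actc1 and Myl2 -0.03, -0.06 and -0.10. Without wild type replicate 3 the median difference of the fibroblast markers was 0.19 in place of 0.33, and that of the cardiomyocyte markers -0.10. By limma 0 of the 10 fibroblast and 0 of the 9 cardiomyocyte markers passed. At an unadjusted p under 0.05, where 10.6% of all probe sets stood, there were 6 fibroblast markers, 5 higher and Gsn, the gelsolin gene, lower (-0.34), and 2 cardiomyocyte markers, both lower. Their part in the complement values was not tested.

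**Figure D3:**
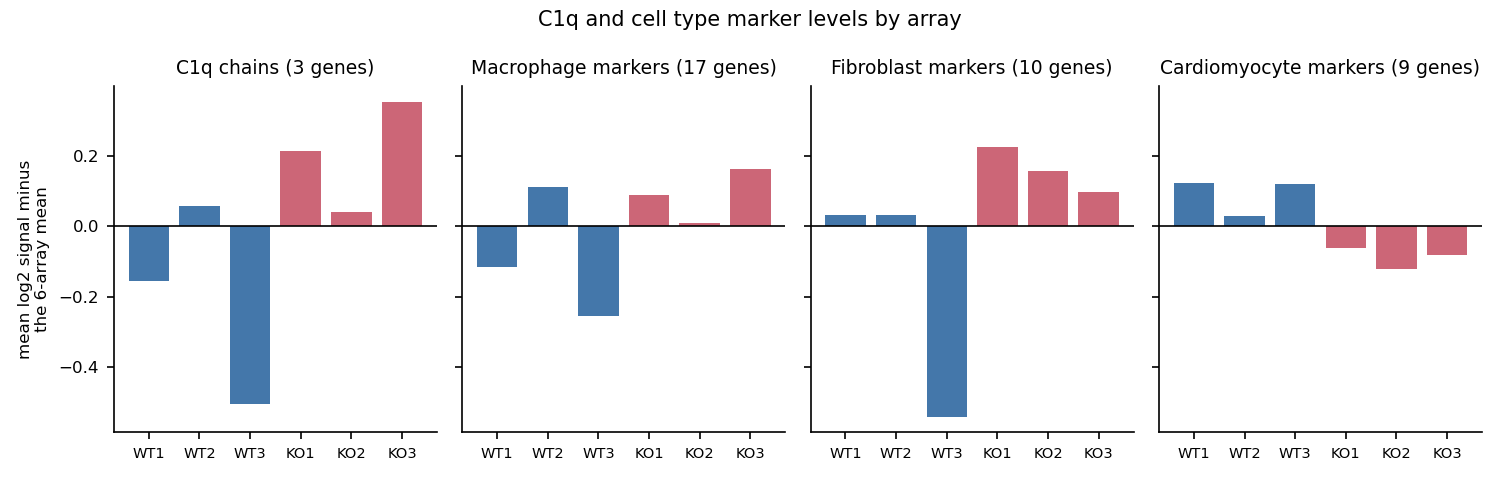
Mean log2 signal of each gene group minus its own 6-array mean (vertical axis), by array, for wild type (blue) and knockout (red) hearts. Wild type replicate 3 is the lowest array for C1q chains (-0.51), macrophage markers (-0.25) and fibroblast markers (-0.54), but not for cardiomyocyte markers (0.12).

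The array values most like those of C1qa, by the root mean square difference of centred log2 values over 6 arrays among 12759 genes above the dim range, were those of Cavin3 (0.036), Ang (0.047) and Tmod3 (0.054). C1qb itself came 29th at 0.082 and C1qc 121st at 0.110. For C1qb the nearest were Arf6 (0.047), Slc25a24 (0.048) and Fgfr1 (0.067), with C1qa 9th. For C1qc they were Pgm2l1 (0.081), Cnksr3 (0.087) and Crlf2 (0.091), with C1qb 7th. None of these 9 neighbours passed the limma threshold, with differences of 0.29 to 0.52. For each C1q chain, 3 genes outside the complement system were thus closer than either of the other chains.

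Neither alternative pathway gene passed the threshold, and the intervals of both differences covered 0. Cfb encodes factor B, the protease precursor that forms the alternative C3 convertase. Its probe set 1417314_at read 3.91, 3.94 and 3.73 in wild type hearts and 3.94, 3.94 and 4.24 in knockout hearts. Each value lies below the median of its own array, narrowly so in knockout replicate 3, and 3 arrays (wild type replicate 2 and knockout replicates 1 and 2) gave the same value, so the gene was dim in both genotypes. The difference was 0.18 (SE 0.12, 95% interval -0.08 to 0.44, limma adjusted p = 0.660), and it was 0.08 without knockout replicate 3.

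Cfp encodes properdin, which stabilises that convertase and is made by myeloid cells. Probe set 1452279_at read 4.84, 5.41 and 5.33 in wild type hearts and 5.67, 5.39 and 5.22 in knockout hearts. Knockout replicate 1 was the highest array and wild type replicate 1 the lowest, with the other 4 intermixed. The difference was 0.23 (SE 0.17, 95% interval -0.14 to 0.60, limma adjusted p = 0.708), and without wild type replicate 1 it was 0.06.

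The receptor genes gave different patterns. C5ar1, which encodes the C5a receptor of neutrophils and macrophages, read higher in every knockout heart than in any wild type heart on both of its probe sets, without passing the threshold. Probe set 1422190_at read 4.27, 4.20 and 4.18 in wild type hearts and 4.62, 4.48 and 4.76 in knockout hearts. Probe set 1439902_at read 3.86, 3.69 and 3.77 in wild type hearts and 4.16, 4.30 and 4.45 in knockout hearts. In neither did the groups overlap, and wild type replicate 3 did not stand apart.

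The means of 1422190_at were 4.22 ± 0.05 and 4.62 ± 0.14 (SD, n = 3), a difference of 0.40 (SE 0.10, 95% interval 0.17 to 0.63, limma adjusted p = 0.172). Those of 1439902_at were 3.78 ± 0.08 and 4.30 ± 0.15 (SD, n = 3), a difference of 0.53 (SE 0.11, 95% interval 0.29 to 0.77, limma adjusted p = 0.0885), or 1.44-fold. This was the smallest p among the complement probe sets. Over the alternatives its adjusted p ran from 0.0749 to 0.296 and its difference from 0.45 to 0.60, and that of the other probe set from 0.33 to 0.47. Both probe sets lie near or below the array medians, where RMA signals can compress a fold change.

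C3ar1 encodes the C3a receptor, and its 3 probe sets showed no common direction. The brightest, 1419482_at, read 5.33, 5.38 and 5.09 in wild type hearts and 5.28, 5.43 and 5.19 in knockout hearts, and the groups were intermixed. Its difference was 0.03 (95% interval -0.22 to 0.28, limma adjusted p = 0.967). That interval overlaps the 0.17 to 0.63 of C5ar1 probe set 1422190_at. The difference between the receptors was not tested.

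For 1442082_at the wild type values were 5.06, 5.64 and 5.08 and the knockout values 5.07, 4.98 and 5.11, with wild type replicate 2 alone above the rest. The difference of -0.20 (95% interval -0.54 to 0.14, limma adjusted p = 0.730) was -0.01 without that array. For 1419483_at they were 4.99, 5.36 and 5.18 against 4.96, 5.07 and 5.30, a difference of -0.07 (95% interval -0.35 to 0.22, limma adjusted p = 0.918). Leaving out single arrays turned the sign of 1419482_at and of 1419483_at, so no direction can be given for C3ar1.

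To set these receptors side by side, the 250 bases before the RefSeq start (GRCm38.p6) of C5ar1 (chr7:16259339-16259588, minus strand) and C3ar1 (chr6:122856158-122856407, minus strand) are shown with matches to the same motifs in capitals.
C5ar1: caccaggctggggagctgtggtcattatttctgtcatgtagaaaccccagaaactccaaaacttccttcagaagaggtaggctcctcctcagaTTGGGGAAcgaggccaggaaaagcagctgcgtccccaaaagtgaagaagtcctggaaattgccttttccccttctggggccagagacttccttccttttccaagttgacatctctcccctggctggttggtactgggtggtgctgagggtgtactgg
C3ar1: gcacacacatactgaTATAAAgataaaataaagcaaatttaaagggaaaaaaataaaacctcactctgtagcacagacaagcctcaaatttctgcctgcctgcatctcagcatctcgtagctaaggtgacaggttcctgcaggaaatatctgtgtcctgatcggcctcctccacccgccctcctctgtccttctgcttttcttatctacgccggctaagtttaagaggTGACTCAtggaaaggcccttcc
C5ar1 held a C/EBP match from 157 to 150 bases before its start. C3ar1 held an AP-1 match from 22 to 16, to a motif whose pattern TGANTCA reads alike on both strands, and TATAAA from 235 to 230. Of all promoter windows of this length 6.75% held the AP-1 motif and 12.4% held TATAAA. Windows of this length without a match say nothing about the factors.

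Neutrophils carry C5ar1 at high level, and their markers were mixed in these hearts. The defining markers S100a8 and S100a9 had differences of 0.95 and 1.32 (limma adjusted p = 0.109 and 0.0641), and Csf3r, the receptor that drives neutrophil formation, -0.02. Of 8 measured markers 0 passed by limma, and S100a8 and S100a9 alone had an unadjusted p under 0.05. The centred mean of the 8 was -0.22 to -0.12 in wild type and 0.06 to 0.23 in knockout hearts, so the groups did not overlap. Without S100a8 and S100a9 the other 6 differed by -0.02 to 0.16, and their centred mean was -0.08 to 0.02 in wild type and 0.01 to 0.04 in knockout hearts, so the groups overlapped. S100a8 and S100a9 are also made by other stressed cells, and the part of neutrophils in the C5ar1 difference was not tested. Hepatocyte markers, which would mark the main source of plasma complement, were mostly dim. Of 7 measured, Alb ranged from 2.53 to 3.10 and Apoa1 from 3.83 to 4.40, 0 passed by limma, and Ahsg alone had an unadjusted p under 0.05, with a difference of 1.21 (limma adjusted p = 0.207).

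None of the other complement genes passed the threshold either. Of 45 further complement genes listed, 36 were measured by 62 probe sets. By limma 0 of the 62 passed, and 6 had an unadjusted p under 0.05, 3 higher and 3 lower in knockout hearts, near the 10.6% of all probe sets at that level. The median difference of the 36 main probe sets, the brightest of each gene, was -0.01, which is near that of all 18029 genes (-0.0020), whereas the 7 genes described above had a median of 0.34. Members and lists were chosen with earlier results of these data known, so no conclusion is drawn from this contrast. In 3 of the 36 main probe sets (C2, Colec11 and Vsig4) all knockout arrays lay above all wild type arrays. In 4 (Vtn, Cd46, C8g and Hc) all lay below. Over all probe sets these arrangements were seen in 6.74% and 8.42%.

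Among 11 classical and lectin pathway genes, with a median of -0.01, none had an unadjusted p under 0.05 by limma. The closest were C2, which forms the classical convertase with C4, at 0.20 (adjusted p = 0.516), the collectin gene Colec11 at 0.16 and the protease gene Masp2 at -0.12. C1ra and C1s1, the proteases that join C1q in the C1 complex, were at 0.04 and 0.11 with adjusted p of 0.976 and 0.877. They are made largely by stromal cells. Both were lowest in wild type replicate 3, at 5.92 and 6.93, and without it their differences were -0.21 and -0.08.

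The 6 terminal pathway genes, which build the membrane attack complex, had a median of -0.06 and lay at dim signals. C8g, the gamma chain of C8, was at -0.26 (limma adjusted p = 0.400) and Hc, the C5 gene, at -0.22 (adjusted p = 0.476). In both, all knockout arrays lay below all wild type arrays, an arrangement seen in 8.42% of all probe sets. Without wild type replicate 3 the C8g difference was -0.17. Hc read 2.80 to 3.03 in wild type hearts and 2.72 to 2.73 in knockout hearts, near the lower quartile of the arrays, so no level of C5 transcript can be read from it. C6 was at -0.09.

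Among 6 further receptors and receptor subunits Vsig4, a complement receptor of tissue macrophages, had the largest difference, 1.71 (SE 0.50, 95% interval 0.58 to 2.83, limma adjusted p = 0.230). It read 2.65, 4.44 and 4.14 in wild type hearts and 6.51, 5.19 and 4.66 in knockout hearts. The groups did not overlap, yet the spread within each was close to 1 (SD 0.96 in both), with the highest value in knockout replicate 1. Without that array the difference was 1.18. Wild type replicate 1, at 2.65, lay below the lower quartile of its array (2.77), and without that replicate the difference was 1.16. The integrin gene Itgam, a subunit of complement receptor CR3, was at 0.10 and Cd93 at -0.04.

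Of 13 regulators the largest difference was that of Vtn, which encodes vitronectin, an inhibitor of the membrane attack complex and an adhesion protein. Its main probe set read 7.07, 7.30 and 7.67 in wild type hearts and 6.67, 6.63 and 6.89 in knockout hearts, all lower, a difference of -0.62 (SE 0.15, limma adjusted p = 0.150). A dimmer probe set gave -0.46 (adjusted p = 0.243), again with no overlap. Without wild type replicate 3 these differences were -0.45 and -0.30. The membrane regulators Cd46 and Cd59a were at -0.18 and 0.16. Secondary probe sets of Cd55 (0.27) and Susd4 (0.32) had unadjusted p under 0.05 by limma, whereas the main probe sets of these genes, at -0.18 and 0.11, did not.

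**Figure D4:**
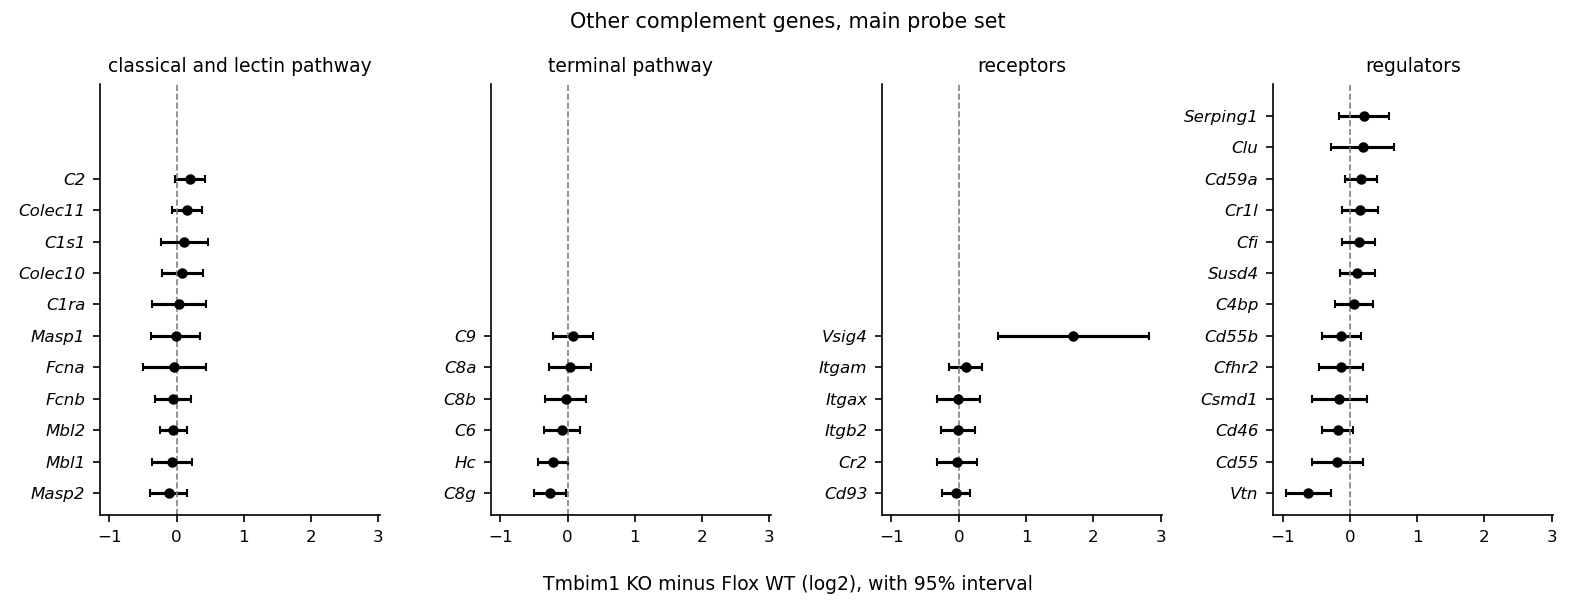
Difference in log2 signal, Tmbim1 knockout minus Flox wild type (horizontal axis), with the 95% interval of the limma fit, for the main probe set of 36 other complement genes grouped by role. Most intervals cover 0; Vsig4 (1.71), Vtn (-0.62) and C8g (-0.26) are the exceptions, and 0 of the 36 passed after adjustment over all probe sets.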

How the data were processed

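RNA from 6 hearts was measured on Affymetrix arrays, from 400 ng of total RNA each. The deposited values are log2 signals; RMA and limma are named per the submitters' processing notes, without versions. RMA equalises the arrays' distributions, so an overall shift between groups is removed, and it compresses dim signals. The table had 38208 rows, of which 13 were control probe sets and were not tested. The probe annotation gave 34325 probe sets 1 symbol (18029 genes), 62 several and 3808 none.

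The genotypes were compared with limma (version 3.58.1, R 4.3.3), using lmFit and eBayes, two-sided, Benjamini-Hochberg adjustment over all 38195 probe sets and a threshold of 0.05. All adjusted p-values come from this fit, and differences are those of knockout over wild type hearts, with n = 3 in each group. The code was tested on simulated data. Every complement probe set was reported. Of the other complement genes, the 3 smallest p per role were named, with C1ra, C1s1 and the secondary probe sets of Cd55 and Susd4 added after their values were seen. Of the cell type lists set beside a result the first 3 markers were named where measured. Fcgr1, Lyve1, Cd14, Lyz2, Ahsg, Gsn, Nppa and the 5 macrophage markers of negative difference were likewise added after their values were seen. The dim range in the search for like genes ended at the 40th percentile of mean signal. Members and lists were chosen with earlier results of these data known. The labels call the mice biological samples, and the number of arrays limits precision. Lists of atrial, epicardial, endothelial, adipocyte and B cell markers were also measured. By limma 1 member of these lists passed, Nppa of the atrial list. The median differences of the lists were 1.95, 0.08, -0.10, -0.01 and 0.01. The atrial median rests on knockout replicate 1, without which it was -0.04. Nppa itself differed by 1.19, with all knockout arrays above all wild type arrays, and by 1.10 without that replicate. Its call was lost when any 1 knockout array was left out, and also without wild type replicate 1 or wild type replicate 2.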

Additional observations from a re-analysis of the deposited data

How the results depend on the processing

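The count of 0 complement probe sets past the limma threshold held in all 15 alternatives, as did 0 for the 62 probe sets of other complement genes. These were a trended or robust variance prior, array weights, median centring, quantile normalization applied again, a filter on dim probe sets, 1 probe set per gene, a replicate block, single arrays left out, and 2 arrays left out together. At an unadjusted p under 0.05 the complement probe sets numbered 3 to 7. C1q, Cfb, Cfp and C5ar1 differences kept their sign throughout. For 1419482_at of C3ar1 the sign turned without knockout replicate 1 and wild type replicate 3 (-0.050), and single arrays left out gave -0.059 to 0.084; for 1419483_at these values were 0.0093 and -0.16 to 0.025. The cause was not tested. Over all probe sets the count of 161 became 102 with 1 probe set per gene, which tests fewer, 29 without those 2 arrays and 38 to 86 with single arrays left out. Tmbim1 was at -0.96 (adjusted p = 0.0607) without those 2 arrays and at -0.96 to -0.83 with single arrays left out. With a replicate block 0 complement probe sets, 0 of the other complement genes and 168 probe sets in all passed, and the calls of Tmbim1 and Nppa did not change. Nppa lost its call in 9 of the 15 alternatives (adjusted p 0.016 to 0.21). Deviations of same-numbered arrays correlated at 0.060, 0.138 and 0.016, and not every array correlated best with its own number, so the numbers were not taken as pairs.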
